A study of Mus musculus with 13 samples.

Results

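The genes described here are 9 interferon-induced genes of the mouse: Ifit1, Ifit2, Ifit3, Isg15, Irf7, Usp18, Oasl2, Rsad2 and Ifi44. They were chosen by name, and every probe set that the array's platform annotation gives one of these symbols was taken, which gave 10 probe sets for 8 genes among the 45037 probe sets that are not controls. No probe set carried the symbol Ifi44, so that gene was not analysed here. RNA was measured on Affymetrix mouse expression arrays in 13 untreated samples, each from a different mouse. There were 6 primary medulloblastomas of Ptch1(+/-) mice (Ptch1 MB, called tumours 1 to 6), 3 samples of granule neuron precursors from the wild-type cerebellum of the first postnatal week (P7 GNPC) and 4 samples of wild-type embryonic dorsal brainstem (E16.5 DBS). Ptch1 encodes the receptor that holds Sonic hedgehog signalling in check, and medulloblastoma is a tumour of the cerebellum. Strain, sex, litter, array batch and the age of the tumour-bearing mice are not in the labels used here. Any batch effect and the groups cannot be told apart. A Ctnnb1 tumour group of the same series was not analysed here.

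Interferons are secreted proteins that warn cells of infection. Type I interferons bind the receptor chains Ifnar1 and Ifnar2, the kinases Jak1 and Tyk2 then become active, and transcription factors such as Irf9 bind interferon-stimulated response elements in the promoters of target genes. In the brain, microglia, astrocytes and neurons can all respond, and levels of most target genes are low in healthy tissue. Of the genes described here, Irf7 is a transcription factor that amplifies interferon production. The Ifit proteins bind foreign RNA, Rsad2 (viperin) makes an antiviral nucleotide analogue, and Oasl2 belongs to the oligoadenylate synthetase family. Isg15 is a ubiquitin-like protein that is joined to other proteins, and Usp18 removes it and also damps signalling from the type I receptor.

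The core of the interferon-stimulated response element is shown for the members whose promoter window holds it. RefSeq promoter windows of GRCm38.p6, from 250 bases before to 50 bases after each start site, were searched on both strands for the core letters GAAANNGAAA. Of 8 member genes with a window, 4 held at least 1 match, against 3.99% of all 27025 genes with a window. Ifit1 and Ifit3, neighbours in the Ifit cluster of chromosome 19, each had 2 matches, Isg15 had 3 that overlap one another, and Rsad2 had 1. The stretches below run 5′ to 3′ on the gene's strand with the matches in capitals (GAAANNGAAA or, on the opposite strand, its reverse complement), at chr19:34640760-34640838 (plus strand) for Ifit1, chr19:34583348-34583441 (plus strand) for Ifit3, chr4:156200850-156200921 (minus strand) for Isg15 and chr12:26456538-26456597 (minus strand) for Rsad2.
Ifit1: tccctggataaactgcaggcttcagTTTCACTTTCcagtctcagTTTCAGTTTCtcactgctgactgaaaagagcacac
Ifit3: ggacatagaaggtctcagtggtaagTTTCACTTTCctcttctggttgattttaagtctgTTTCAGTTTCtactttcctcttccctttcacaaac
Isg15: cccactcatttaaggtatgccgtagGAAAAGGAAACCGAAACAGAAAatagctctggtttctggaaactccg
Rsad2: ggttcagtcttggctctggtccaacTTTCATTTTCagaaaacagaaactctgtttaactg
The windows of Ifit2, Irf7, Oasl2 and Ifi44 held no match of these letters, and Usp18 has no window in the table. A match is a run of letters and not a measured binding site.

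Values are MAS5 intensities, a linear brightness that the authors scaled so that every array has a trimmed mean of 500. Array medians ran from 91.3 to 117.5, so an intensity near 100 lies in the middle of all probe sets. Intensities of different probe sets depend on the probes and are not compared with each other. Groups were compared as log2(intensity + 18) with limma over all 12270 genes that passed a filter on dim values. A call needed an adjusted p (Benjamini-Hochberg) below 0.05 and a difference of at least 2-fold. The added 18 understates the fold of dim genes. Of the 8 members, 5 passed the filter (Ifit1, Ifit2, Ifit3, Irf7 and Rsad2). Ifit1, Ifit3 and Irf7 passed through tumour arrays alone, so a higher level in tumours was in part a condition of entry for them. Isg15 stands outside that fit because its probe set is shared with Gm9706, and Usp18 and Oasl2 did not pass the filter. The labelled tissues were checked against marker lists: the mean log2 level of granule neuron precursor genes was 11.77 to 12.11 in tumours, 11.27 to 11.72 in GNPC and 7.90 to 8.43 in DBS, and that of brainstem genes was 4.82 to 5.51, 5.65 to 6.23 and 11.38 to 11.71 in the same order of groups. The lists of differentiated granule neurons (11.10 to 11.26) and astrocytes (11.76 to 11.92) were highest in GNPC. The lists thus do not show that the GNPC samples held precursors alone.

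Ifit2 and Ifit3 were higher in all 6 tumours than in any normal sample, and these 2 of the 5 tested members were called in both comparisons, where 6.59% of all genes tested were called higher in tumours than in GNPC and 15.5% higher than in DBS. Ifit3 passed the filter through tumour arrays alone, as did Ifit1 and Irf7, so the 2 of 5 cannot be weighed against these shares. Ifit3 also had 1 very high value, in tumour 2, as did Ifit1, Irf7, Usp18, Oasl2 and Rsad2, and Ifit2 and the shared Isg15 probe set were highest there by a smaller step. Of the 5 members tested, 0 were called by limma between GNPC and DBS and 0 had an unadjusted p under 0.05, by limma or by the exact permutation test, in a comparison where 8.73% of genes were called higher in GNPC and 9.68% lower. The 2 tumour comparisons share their tumours and are not independent of each other. In whole tissue, more cells that express a gene and more RNA per cell cannot be told apart.

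**Figure D1:**
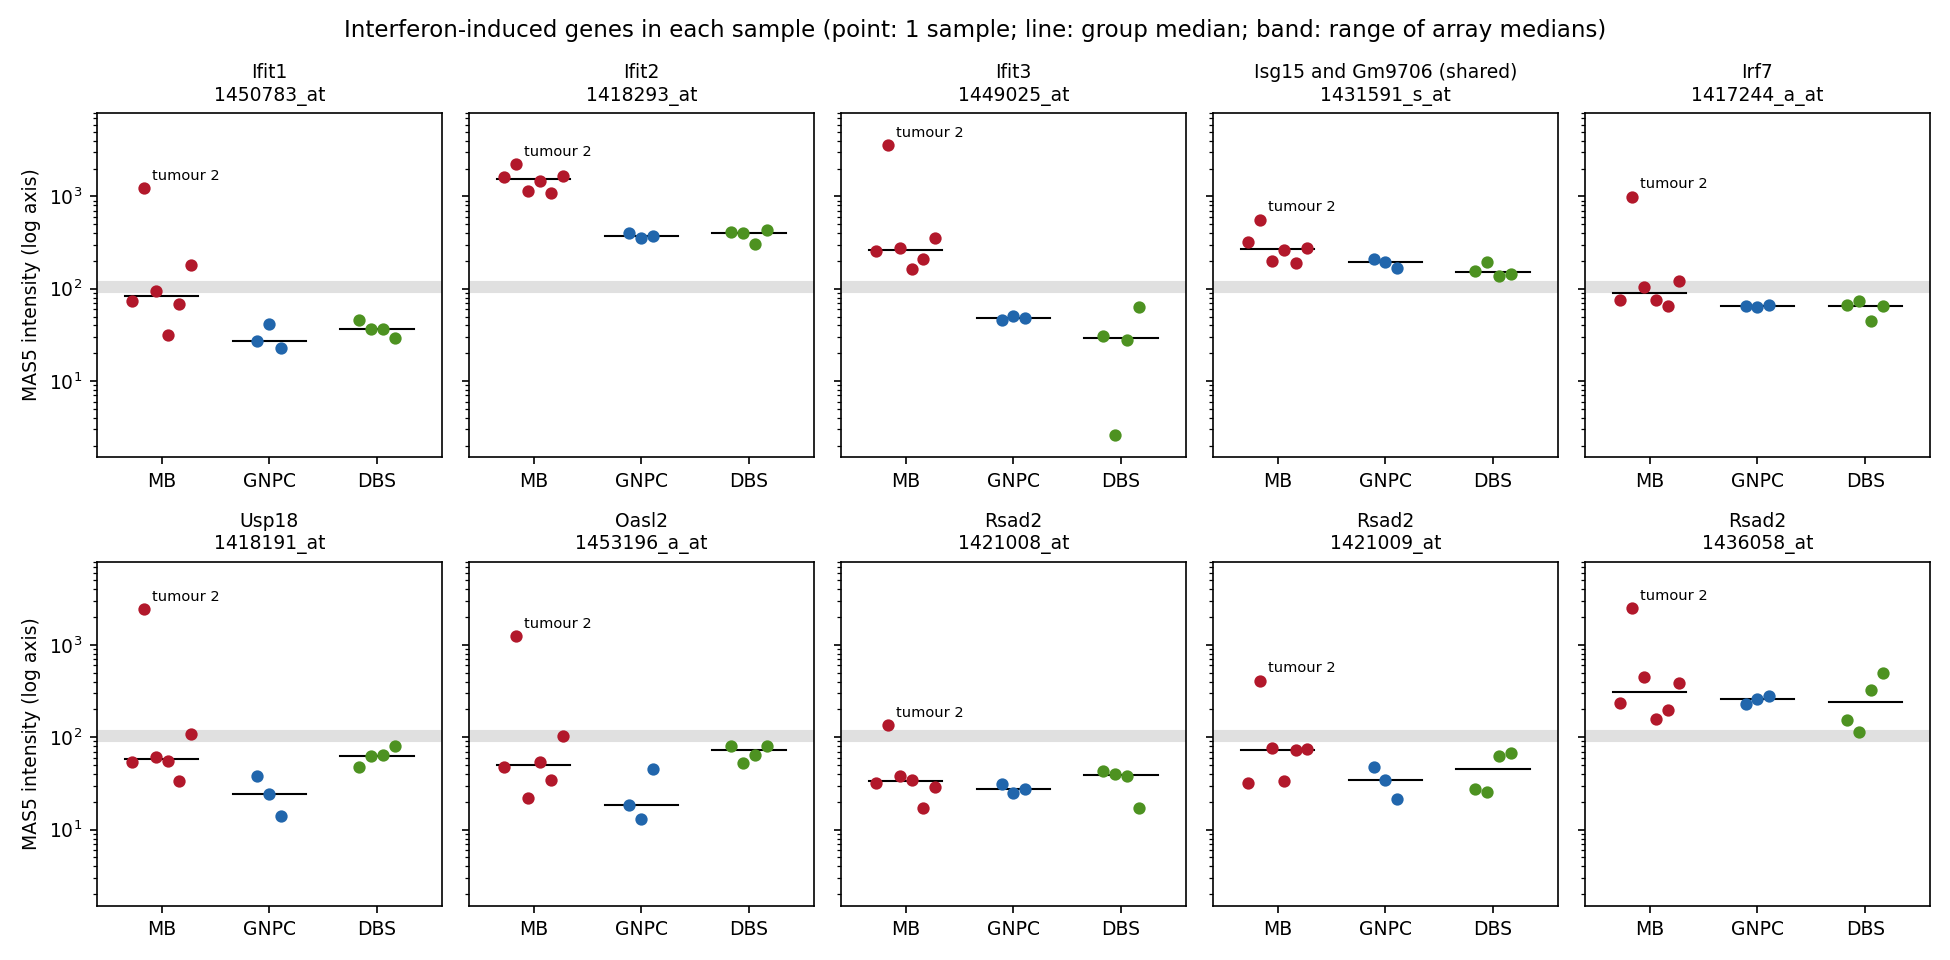
MAS5 intensity (log axis) of the 10 probe sets in each of the 13 samples; points are samples, lines are group medians, and the grey band is the range of array medians, 91.3 to 117.5. Tumour 2 is the highest tumour in every panel, and for Ifit2 and Ifit3 all 6 tumours (MB) lie above every GNPC and DBS sample.

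Ifit2 (probe set 1418293_at), whose product acts in the Ifit complex, had intensities of 1628.4, 2250.6, 1137.6, 1477, 1081.1 and 1672.9 in tumours 1 to 6, against 398.9, 355.9 and 368.5 in GNPC and 414.8, 396.6, 305.1 and 437.7 in DBS. Every tumour exceeded every normal sample, and the tumours ran from 1081.1 to 2250.6. Against GNPC the log2 difference was 1.95 ± 0.20 (SE), or 3.86-fold, with limma adjusted p = 3.87e-06. Against DBS it was 1.91 ± 0.18 (SE), or 3.75-fold, with limma adjusted p = 2.68e-07. The exact two-sided permutation p was 0.0119 against GNPC and 0.00476 against DBS, each the smallest that these group sizes allow. GNPC minus DBS was -0.04 with a 95% interval of -0.50 to 0.42. Ifit2 was above the array median on all 13 arrays, so it had a measured level in the normal tissues as well.

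Ifit3 (probe set 1449025_at), another Ifit family member, had intensities of 255.1, 3583.1, 273, 164.6, 210.2 and 353.7 in tumours 1 to 6, against 45.8, 50.2 and 47.8 in GNPC and 31, 2.6, 28.1 and 63.2 in DBS. All 6 tumours were above their array median and no normal sample was, so the gene entered the fit through tumours alone. The log2 difference was 2.62 ± 0.72 (SE), or 6.15-fold, against GNPC (limma adjusted p = 0.00773) and 3.20 ± 0.66 (SE), or 9.19-fold, against DBS (limma adjusted p = 0.000524). Tumour 2 was above the median of the other 5 tumours by 3.72 on the log2(intensity + 18) scale, which is used for every such difference and fold of tumour 2. Without tumour 2 the differences were 1.99 and 2.57, with limma adjusted p = 0.000437 and 8.84e-06, so both calls held with the other 5 tumours. In that fit 6.88% of genes were called higher in tumours than in GNPC and 15.8% higher than in DBS. The lowest DBS value, 2.6, came from DBS sample 2, the array with the highest log2 ratio of 3′ to 5′ control probe sets (2.43, against 1.23 to 1.70 in the other DBS samples, 1.11 to 1.19 in GNPC and 1.33 to 1.59 in tumours). The part of that ratio in the value was not tested.

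Non-overlapping groups were common on these arrays, so that feature alone does not set Ifit2 and Ifit3 apart. Of all genes tested, 21% were higher in every tumour than in every GNPC sample, and 27.2% were higher in every tumour than in every DBS sample.

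Ifit1, which recognises RNA that lacks the cap marks of host messenger RNA, had intensities of 73.7, 1222.5, 95.1, 31.6, 68.3 and 182.2 in tumours 1 to 6, against 27, 41.5 and 22.7 in GNPC and 45.7, 36.5, 36.7 and 29.2 in DBS. Tumour 2 stood above the median of the other tumours by a log2 difference of 3.76, 4 of those 5 exceeded every normal sample, and tumour 4 lay within the normal range. The log2 difference was 1.64 ± 0.71 (SE) against GNPC (limma adjusted p = 0.0665) and 1.45 ± 0.64 (SE) against DBS (limma adjusted p = 0.0571), and neither was called. The exact permutation p was 0.119 against GNPC and 0.0952 against DBS. Leaving out tumour 2 lowered the difference from GNPC to 1.03 ± 0.36 (SE) and also the spread, and the gene was then called (limma adjusted p = 0.0292). Ifit1 was above the array median only in tumours 2, 3 and 6. The fit without tumour 2 kept the filter of all arrays, so this call still needed tumour 2 for entry. Leaving out tumour 4 gave 1.96 against GNPC and 1.76 against DBS, both called, and leaving out tumour 5 gave 1.61 against DBS, also called. The call for Ifit1 thus changed when single tumours were left out. Those were not the only settings that brought a call, which were 6 against GNPC and 7 against DBS.

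Irf7, the transcription factor of the group, had intensities of 74.9, 994.5, 105.4, 75.9, 65 and 121.4 in tumours 1 to 6, against 65.2, 63.1 and 67.1 in GNPC and 66.1, 73.6, 44.7 and 64.4 in DBS. Of the 5 other tumours, 4 exceeded every normal sample, the highest at 121.4, and tumour 5 lay within the range of GNPC. Tumours 1 and 4 were only just above the highest normal value, 73.6. Both lay below their array medians, as did every normal sample. Tumour 2 stood above the median of the 5 other tumours by a log2 difference of 3.43. The log2 difference was 0.88 ± 0.59 (SE) against GNPC and 0.94 ± 0.54 (SE) against DBS (limma adjusted p = 0.237 and 0.133), and neither was called. Without tumour 2 these differences were 0.33 and 0.40.

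Rsad2 was measured by 3 probe sets. The brightest, 1436058_at, gave 233.1, 2481.7, 452, 157.7, 196.2 and 388.6 in tumours 1 to 6, against 231.5, 258.4 and 276.4 in GNPC and 153.3, 114.9, 324.4 and 492.1 in DBS. The 5 other tumours overlapped both normal tissues, and none of them exceeded the highest DBS sample. The log2 difference was 0.58 ± 0.66 (SE) against GNPC and 0.70 ± 0.60 (SE) against DBS (limma adjusted p = 0.490 and 0.311), with 0.05 and 0.17 without tumour 2. The dimmer probe sets did not pass the filter, yet both were highest in tumour 2. Probe set 1421009_at was at 410.3 in tumour 2, at 32 to 76 in the other tumours, at 21.7 to 48 in GNPC and at 25.5 to 67.3 in DBS. Probe set 1421008_at was at 135.4 in tumour 2, at 17.2 to 37.6 in the other tumours, at 24.8 to 31 in GNPC and at 17.1 to 43.2 in DBS. The gene next to Rsad2 in the annotation is Cmpk2, a nucleotide kinase that is also induced by interferon. It was at 1139.6 in tumour 2 and 139.4 to 294.6 in the other tumours, against 216 to 314.2 in GNPC and 917.8 to 1156.6 in DBS.

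Usp18, which removes Isg15 from proteins, was above the array median on 2 arrays, those of tumours 2 and 6. Its intensities were 53.6, 2427.4, 61.8, 55.6, 33.6 and 109.2 in tumours 1 to 6, against 38.3, 24.1 and 13.9 in GNPC and 47.9, 62.6, 63.7 and 80.3 in DBS. Tumour 2 was above the median of the other tumours by a log2 difference of 5.05, a size that depends on the added 18 because the other tumours were dim. In a fit with no filter the log2 difference was 1.70 ± 0.88 (SE) against GNPC and 0.77 ± 0.80 (SE) against DBS (limma adjusted p = 0.160 and 0.465), and without tumour 2 these were 0.87 and -0.06, neither of them called.

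Oasl2 had the same shape, with 47.1, 1250.5, 21.9, 53.7, 34.4 and 104.1 in tumours 1 to 6, against 18.6, 12.9 and 44.8 in GNPC and 79.6, 52, 64.8 and 79.5 in DBS. Tumour 2 was above the median of the other tumours, which were also dim, by a log2 difference of 4.28, and tumour 6 was next. With no filter the log2 difference was 1.37 ± 0.78 (SE) against GNPC and 0.31 ± 0.72 (SE) against DBS (limma adjusted p = 0.208 and 0.753), and without tumour 2 these were 0.66 and -0.40, neither of them called. For both Usp18 and Oasl2 every GNPC sample was below every DBS sample, at intensities below the array median in both tissues. The share of all genes with no overlap between GNPC and DBS was not counted. The lack of overlap can therefore not be read as a trait of Usp18 and Oasl2. The log2 difference of GNPC minus DBS was -0.93 for Usp18 and -1.06 for Oasl2 (limma adjusted p = 0.518 and 0.397), and the exact permutation p was 0.0286 for each, the smallest that these sizes allow.

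The probe set for Isg15, 1431591_s_at, is also annotated to Gm9706, so its signal cannot be given to Isg15 alone. It was at 324.2, 558.9, 201, 262.9, 191.6 and 277.8 in tumours 1 to 6, against 209.4, 197 and 167 in GNPC and 154.1, 197, 136.9 and 146.1 in DBS. Tumour 2 was above the median of the other tumours by a log2 difference of 1.04, a smaller step than for the members other than Ifit2. In a fit over 25894 probe sets the log2 difference was 0.53 ± 0.26 (SE) against GNPC (limma adjusted p = 0.109) and 0.78 ± 0.24 (SE) against DBS (limma adjusted p = 0.00855). The comparison with DBS passed on its adjusted p and fell short of 2-fold, so it was not called. In that fit 5.62% of probe sets were called higher in tumours than in GNPC and 16% higher than in DBS, and the only member probe sets called were again those of Ifit2 and Ifit3.

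**Figure D2:**
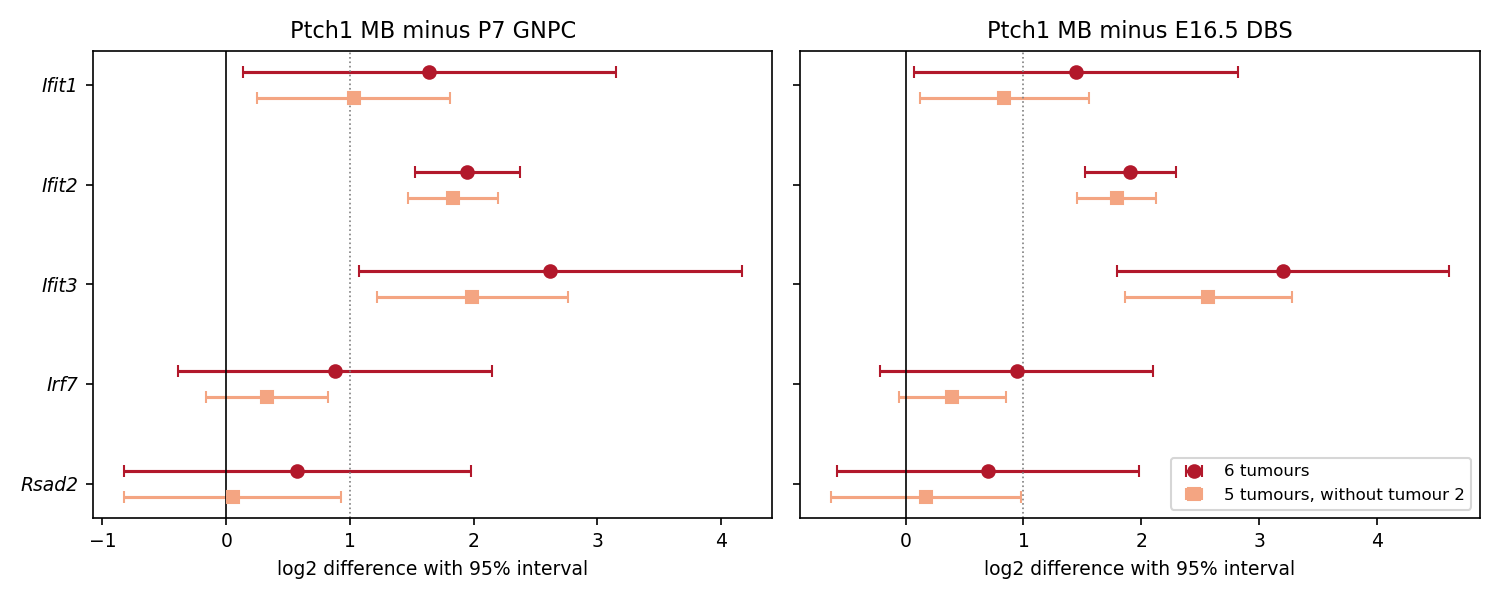
Log2 difference (points) with its 95% interval (bars) for the 5 members tested, Ptch1 MB minus P7 GNPC at left and Ptch1 MB minus E16.5 DBS at right, with all 6 tumours (circles) and without tumour 2 (squares); the dotted line marks 2-fold. The intervals of Ifit2 and Ifit3 lie above 0 in every case, and the values of Irf7 and Rsad2 without tumour 2 lie between 0.05 and 0.40.

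The unevenness among tumours was large for 4 of the 5 tested members. The SD of log2 values over the 6 tumours was 1.63 for Ifit1, 1.58 for Ifit3, 1.39 for Rsad2 and 1.37 for Irf7, which ranked 55, 61, 98 and 104 among 12270 genes. For Ifit2 it was 0.39, which was also above the median over all genes of 0.27. Ifit1 and Irf7 passed the filter only with tumour 2 counted, and Ifit3 through tumours alone. Their ranks are therefore descriptions and not tests. Among the 5 other tumours the SD was 0.73 for Ifit1, 0.61 for Rsad2, 0.38 for Ifit3, 0.31 for Irf7 and 0.29 for Ifit2. In GNPC the 5 members had SDs of 0.03 to 0.28, and in DBS of 0.18 to 0.89. Below tumour 2 the order of the tumours was less clear. Tumour 6 came next for Ifit1, Ifit2, Ifit3, Irf7, Usp18 and Oasl2, tumour 3 for all Rsad2 probe sets and tumour 1 for the shared Isg15 probe set.

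Among the 12270 genes tested, 21 were at least 8-fold higher in tumour 2 than the median of the other tumours on the log2(intensity + 18) scale, and 4 of them were members (Ifit1, Ifit3, Irf7 and Rsad2). Usp18 and Oasl2 also lay past 8-fold but are outside that count, since they did not pass the filter. Ifit1 and Irf7 were above the array median only in tumours 2, 3 and 6, so they passed the filter with the help of tumour 2. Ifit3 passed through tumours alone. The count of 4 members therefore describes tumour 2 and is not a test of it. Of the 21 genes, another 8 were on the interferon pathway lists (Gbp3, Gbp6, Ifi35, Ifih1, Parp9, Rnf213, Rtp4 and Xaf1), named here after their values were seen. The corresponding counts were 10, 11, 9, 5 and 4 genes in tumours 1, 3, 4, 5 and 6, with 0 members in each. Xaf1, an interferon-induced gene linked to cell death, was at 1407.6 in tumour 2 and 34.9 to 256.9 in the other tumours. Ifih1, the cytoplasmic RNA sensor MDA5, was at 1824.2 in tumour 2 and 129.2 to 320.7 in the other tumours.

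The genes whose pattern over the 13 samples was most like the mean of the 5 tested members were Ifi35 (Pearson r = 0.967), Irgm1 (0.949), Parp12 (0.942), Igtp (0.940), Irgm2 (0.939), Lgals3bp (0.929), Iigp1 (0.911) and Trim30a (0.911). All 8 were on the pathway lists. Tumour 2 carried much of this likeness, and over the other 12 samples r ran from 0.646 for Iigp1 to 0.888 for Ifi35. These values describe samples that share groups and are given with no test. Ifi35 was at 2674.6 in tumour 2 and at 156.1 to 525.4 in all other samples, and Irgm1, an immunity-related GTPase, at 2304.4 and 114.8 to 450.8.

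The rest of the pathway was read from 9 gene lists, in the order in which the signal runs. Interferon genes themselves were dim: 10 ligand genes had a probe set, with intensities of 0.7 to 158.8, and 1 of them, Ifnz, passed the filter. It was at 158.8, 100.4, 129.1, 60, 96.3 and 87.9 in tumours 1 to 6, 47.4 to 88.3 in GNPC and 23.7 to 102.5 in DBS, and was not called (log2 difference 0.51 against GNPC and 0.95 against DBS). Its highest tumour value was in tumour 1. Median scaling, quantile normalization, a pseudocount of 1, array weights or leaving out tumour 4 or DBS sample 2 brought it to a call against DBS.

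Of 5 receptor genes tested, none was called in any of the 3 comparisons by limma with all samples (at an unadjusted p under 0.05 there was 1, Ifngr2 in tumours against DBS, and 0 in each of the other comparisons). Ifnar1 averaged 735 ± 50.9 in tumours (SD, n = 6), 742 ± 45.4 in GNPC (n = 3) and 723 ± 119 in DBS (n = 4). Its log2 difference was -0.01 against GNPC and 0.03 against DBS. Ifnar2 averaged 392 ± 123 in tumours, 445 ± 15.4 in GNPC and 340 ± 75.1 in DBS. Ifngr1 and Il10rb likewise differed by at most 0.38 on the log2 scale between tumours and either normal tissue. Ifngr2, a chain of the interferon gamma receptor, had the widest gap, -1.04 against DBS (limma adjusted p = 0.0506), and it was called lower without tumour 2 (-1.13, limma adjusted p = 0.0444). Its lowest value, 13.2, was in tumour 4. A receptor gene was likewise called against DBS without tumour 5 and without tumour 6.

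Of 9 genes for JAK, STAT and IRF proteins, 1 was called higher in tumours than in GNPC and 2 were called higher than in DBS. The shares of all genes tested were 6.59% and 15.5%. Irf8, a factor of the myeloid lineage, was at 353 ± 108 in tumours, 159 ± 13.8 in GNPC and 136 ± 14.9 in DBS, with log2 differences of 1.01 and 1.21 (limma adjusted p = 0.00256 and 0.000144). The list held 0 calls against GNPC without tumour 1, 4 or 6 or GNPC sample 3, and 2 without tumour 3. Irf1 was higher than in DBS by 1.03 (limma adjusted p = 0.000170), and by 0.97 without tumour 2, short of 2-fold. Jak1 was lower than in DBS by a log2 difference of -1.38 (limma adjusted p = 6.60e-08), in a comparison where 20.9% of all genes were called lower. Irf9, the DNA-binding part of the type I complex, was at 1105.1 in tumour 2, 170 to 286.9 in the other tumours, 185.9 to 231.3 in GNPC and 172.6 to 203.2 in DBS. It was not called, and neither were Irf3, Jak2, Stat2, Stat3 or Tyk2. Tumour 2 lay within the range of the other tumours for Irf3, Jak2, Stat2 and Stat3, and had 270.1 for Tyk2, where the other tumours had 219.1 to 257.4.

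Of 8 sensors and adaptors of foreign nucleic acid, 4 were called higher in tumours than in GNPC and 2 higher than in DBS, with the same counts without tumour 2 and 2 against GNPC without GNPC sample 1. Among all genes tested, 6.59% and 15.5% were called higher in these comparisons. Cgas, the cytoplasmic DNA sensor, averaged 789 ± 385 in tumours, 233 ± 40.8 in GNPC and 210 ± 41.7 in DBS, with log2 differences of 1.54 and 1.69 (limma adjusted p = 0.00197 and 0.000226). Sting1, its adaptor, was higher by 1.23 and 1.60, and Ifih1 by 1.68 against GNPC. Cgas and Sting1 did not follow tumour 2: Cgas was at 615.9 there and at 344.3 to 1234.4 in the other tumours, and Sting1 at 229.1 and 142 to 408.8.

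Of 30 other antiviral interferon-stimulated genes tested, 6 were called higher in tumours than in GNPC and none lower, in a comparison where 14.2% of all genes were called lower, and 6 were called without tumour 2. Against DBS 13 were called higher and 1 lower, and without tumour 2 these counts were 8 and 3. Of all genes, 6.59% were called higher than in GNPC, and 15.5% higher and 20.9% lower than in DBS. The count against GNPC was 11 after median scaling of the arrays and 10 after quantile normalization. Samd9l was higher than in GNPC by 2.14, Ifi27 by 2.12 and Ifitm3, a membrane protein that blocks viral entry, by 2.02 (limma adjusted p = 0.00435, 0.000947 and 0.000380). Against DBS the largest differences were those of Plscr1 (3.46), Ifi27 (2.96) and Ifitm3 (2.11), and Cmpk2 was the gene called lower (-1.69). The median log2 difference of the 30 genes was 0.64 against GNPC and 0.89 against DBS, beside -0.03 and 0.00 over all genes. In tumour 2, 26 of the 30 had their highest tumour value, and 23 were at least 2-fold above the median of the other tumours, beside 21.6% and 4.31% of all genes. Plscr1 was an exception, at 593.8 in tumour 2 and 600.2 to 1404.7 in the others.

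Of 10 genes on the list of interferon gamma targets and immunity-related GTPases, 6 were called higher in tumours than in GNPC and 7 higher than in DBS, with 3 and 6 without tumour 2. With all samples, the shares over all genes were 6.59% and 15.5%. The count against GNPC was also 3 without GNPC sample 1 or 2 and 2 without sample 3, and the count against DBS was 4 without DBS sample 4. Cxcl10, a chemokine that draws T cells, was at 371.8, 498.6, 210.7, 124.5, 148.4 and 197.7 in tumours 1 to 6, against 58.4, 8 and 33.4 in GNPC and 2.6, 2.9, 30.7 and 39.2 in DBS. Every tumour exceeded every normal sample. Its log2 difference was 2.41 against GNPC and 2.91 against DBS (limma adjusted p = 0.000720 and 2.54e-05). Gbp2 was higher by 1.53 and 1.80, Ifi47 by 1.52 against GNPC, and Gbp6 by 1.94 against DBS. All 10 genes were highest in tumour 2 and at least 2-fold above the median of the other tumours. The median log2 difference of the list was 1.30 against GNPC and 1.61 against DBS.

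Of 9 genes of class I antigen presentation, B2m and Psmb8 were called higher in both comparisons, B2m by 1.45 and 2.04 and Psmb8, an immunoproteasome subunit, by 1.17 and 1.54. For this and the next 2 lists, the shares of all genes called higher were 6.59% against GNPC and 15.5% against DBS. Psmb8 was not called against GNPC without tumour 2 (0.92), and the list also held 1 call there without GNPC sample 2. In tumour 2, 8 of the 9 had their highest tumour value. Of 2 genes of Isg15 conjugation, Herc6, the ligase in mice, was called higher than in GNPC by 1.16, and by 0.86 without tumour 2, which was not called; the list also held 0 calls there without tumour 6 or GNPC sample 1 or 3. Of 11 negative regulators, Socs3, a feedback inhibitor of JAK kinases, was called higher in both comparisons, by 1.37 and 3.45 (2 genes were called against GNPC without GNPC sample 3), and Rnaseh2a, Rnaseh2b and Rnaseh2c higher than in DBS by 1.93, 2.54 and 2.15. These last genes encode subunits of an RNase that clears RNA from DNA and is also used in replication. None of the 11 was at least 2-fold above the median of the other tumours in tumour 2.

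Between GNPC and DBS, 4 negative regulators were called higher in GNPC (Socs3 by 2.08 and the RNase H2 subunits by 1.40 to 1.61). Of the 30 antiviral genes, 3 were called higher in GNPC (Plscr1 by 2.34, Nmi by 1.24 and Ifitm2 by 1.03) and 1 lower (Cmpk2, -1.82). Among all genes tested, 8.73% were called higher in GNPC and 9.68% lower. Of the other 7 lists, no gene was called by limma with all samples in the fit. At an unadjusted p under 0.05 they held 4 JAK, STAT and IRF genes and 1 class I gene, and 0 on the other 5 lists.

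**Figure D3:**
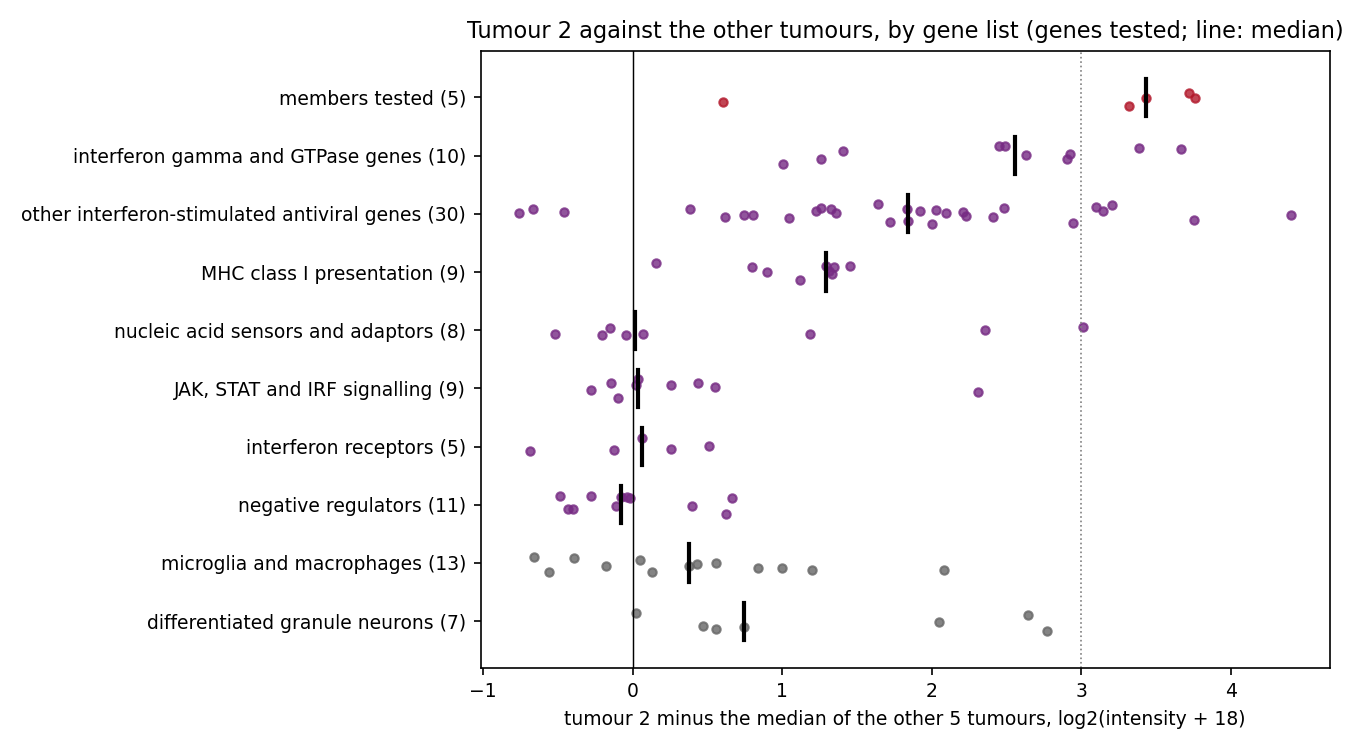
Tumour 2 minus the median of the other 5 tumours, on the log2(intensity + 18) scale, for each gene tested on each list (points) with the list's median (line); the dotted line marks 8-fold and the number in brackets counts genes. The list medians are 3.43 for the members, 2.56 for the interferon gamma and GTPase genes, 1.84 for the other antiviral genes and 0.06 for the receptors.

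Markers of immune and neural cells also varied. Of 13 microglia and macrophage markers tested, 6 were called higher and 2 lower in tumours than in GNPC, and 7 higher than in DBS. Over all genes these shares were 6.59%, 14.2% and 15.5%. The mean log2 level of the list was 9.54 in tumour 2, 8.38 to 9.66 in the other tumours, 8.31 to 8.74 in GNPC and 7.85 to 8.18 in DBS, so tumour 2 lay within the range of the other tumours. The summed intensity of these markers was 15297.2 in tumour 2, 6212.9 to 17232.1 in the other tumours, 6437.8 to 8013.2 in GNPC and 5986.6 to 6272.2 in DBS. Single markers were split. Of the 13, 5 had their highest tumour value in tumour 2, beside 21.6% of all genes, and the rest did not. In tumour 2, 3 of the 13 (Csf1r, Cx3cr1 and P2ry12) were at least 2-fold above the median of the other tumours, beside 4.31% of all genes. Of 12 T and NK cell genes with a probe set, 1 passed the filter and it was not called. Cd3e, which defines T cells, was at 4.3 to 17.6 in tumours, 5.1 to 8.1 in GNPC and 6 to 36.3 in DBS, all below the array medians. The list of differentiated granule neurons had a mean log2 level of 10.64 in tumour 2, 8.06 to 9.95 in the other tumours, 11.10 to 11.26 in GNPC and 8.62 to 9.01 in DBS. Gabra6, the receptor subunit that marks those neurons, was at 4620.9 in tumour 2 and 6.8 to 1810.9 in the other tumours. Tumour 2 was above the other tumours for 7 astrocyte markers as well, at 11.34 in tumour 2, 10.10 to 10.95 in the other tumours, 11.76 to 11.92 in GNPC and 10.87 to 11.004 in DBS, and 4 of the 7 had their highest tumour value there. For 4 dendritic cell markers the mean log2 level was 9.34 in tumour 2, 7.95 to 9.14 in the other tumours, 8.59 to 8.89 in GNPC and 7.69 to 8.19 in DBS. Of these 4, 2 were highest in tumour 2, and 1 of those, Bst2, is also on the antiviral list. Their summed intensity, mostly Tcf4, was lower in tumour 2 (11525.5) than in the other tumours (12509.8 to 16963). For 6 granule neuron precursor genes the mean was also highest in tumour 2, at 12.11, but only 1 of the 6 was highest there. Their summed intensity was 49367.6 in tumour 2 and 43445.3 to 49364.7 in the other tumours. The part of these markers in the levels of the interferon-induced genes was not tested. The members themselves were at a mean log2 level of 10.90 in tumour 2, 7.54 to 8.54 in the other tumours, 6.91 to 6.997 in GNPC and 6.48 to 7.22 in DBS.

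**Figure D4:**
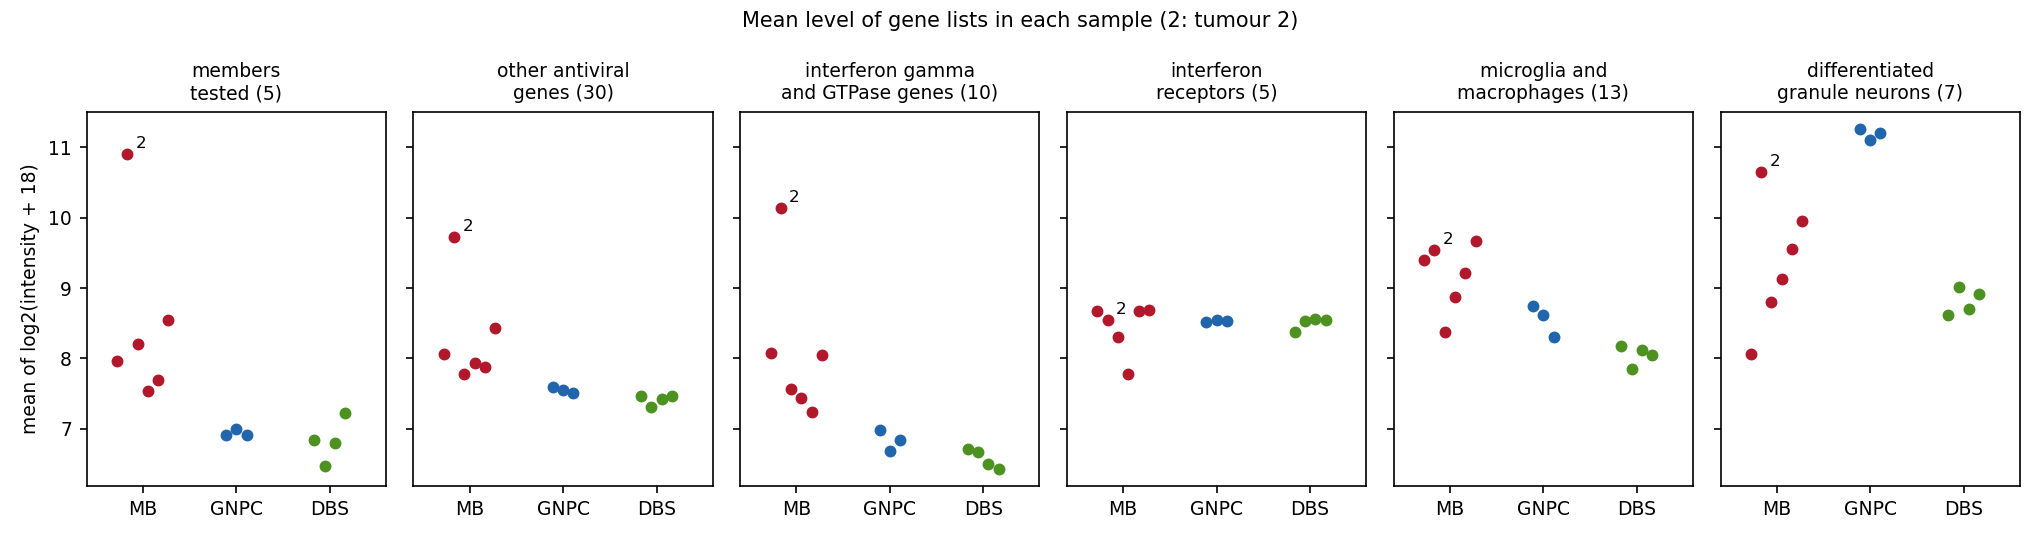
Mean of log2(intensity + 18) over the genes tested on 6 lists in each sample, with tumour 2 marked; tumours (MB) stand left of GNPC and DBS, and the number in brackets counts genes. Tumour 2 is apart from the other tumours for the members and for both interferon-stimulated lists, at 10.90, 9.72 and 10.13, and within their range for receptors and for microglia and macrophages. For differentiated granule neurons it is above the other tumours as well, at 10.64 against 8.06 to 9.95.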

How the data were processed

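Intensities of 45101 probe sets on 13 arrays were used as the authors deposited them. Per the submitters' processing notes MAS5 was used (no role or version stated), and on every array the mean without the lowest and highest 2% of values is 500. Per the labels' protocols, RNA was labelled after a 2-cycle amplification. A genome build is not given in the sources used here. Groups came from the labels' source names, and replicates were numbered by accession, so numbers do not pair samples.

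The platform annotation gives 1 symbol to 34945 of the 45037 non-control probe sets, several to 932 and none to 9160. Those with 1 symbol and a value above the array median on at least 3 arrays were kept, with the brightest per gene (12270 genes). Values were tested as log2(intensity + 18), 18 being the 20th percentile of all values, with limma 3.58.1 in R 4.3.3 (lmFit, then eBayes with a trend on mean level; residual degrees of freedom 10, prior 4.5), in 1 model with a mean per group. Log2 values of the arrays are limited in precision by the number of arrays, since no counts lie behind them. Exact two-sided permutation tests over samples were run for single members. On simulated data with 200 changed genes, 92% of the 50 raised by a log2 difference of 1.5 were recovered in each tumour comparison, and 8 unchanged genes were called against GNPC and 2 against DBS. The simulation gave a gene the same spread in every group and moved all tumours alike. It therefore does not give the recovery of members that were uneven among tumours. Promoter windows are RefSeq's (GRCm38.p6).

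The members, the 9 pathway lists and the 10 marker lists were chosen with earlier results of these data known. Genes named beyond the members are, per list and comparison, up to 3 called genes of largest difference in each direction, all receptors and JAK, STAT and IRF genes tested, and the 8 genes most like the members. Others were named after their values were seen. Alternatives covered scaling, pseudocount, filter, probe set choice, weights, the fold minimum and leaving out each sample.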

Additional observations from a re-analysis of the deposited data

Results flagged for a closer look

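Each probe set was checked in tumours and in DBS for a sample far from the others of its group by Dixon's criterion on log2(intensity + 18), which chance meets in about 1 in 20 groups. The unevenness among tumours was already known from an earlier look at these data. The tumour counts therefore describe it and are no test of it against that rate. Of 20 groups checked, 8 had such a sample, 7 of them in tumours and 1 in DBS. The 7 tumour cases were all tumour 2, with 3583.1 for Ifit3, 994.5 for Irf7, 2427.4 for Usp18, 1250.5 for Oasl2, and 135.4, 410.3 and 2481.7 for the 3 probe sets of Rsad2. The probe sets of a sample share 1 array and are not independent. On that scale Ifit1, at 1222.5 in tumour 2, did not meet the criterion. The DBS case was a low value, 17.1 in DBS sample 4 for Rsad2 probe set 1421008_at, against 38.2 to 43.2 in the other DBS samples. The brightest Rsad2 probe set had its highest DBS value, 492.1, in that same sample. On linear intensities, a scale added after the data were seen, the 7 tumour cases were met as well, Ifit1 (with a gap of 0.874 of the range) and the shared Isg15 probe set (0.639) also met the criterion in tumour 2, and the DBS value did not (0.808).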

How the results depend on the processing

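The called members were Ifit2 and Ifit3 in both tumour comparisons, and both stayed called under every alternative run; the count of called members ranged from 2 to 3 in each, the third being Ifit1, and was 0 throughout between GNPC and DBS. Leaving out each sample in turn gave 2 to 3, 2 to 3 and 0. Ifit1 was called in 13 of the settings run, in 6 against GNPC and 7 against DBS, with a log2 difference between 0.97 and 2.03 against GNPC over all settings and limma adjusted p from 0.0214 to 0.162. Of the other members, Oasl2 was called between GNPC and DBS without tumour 2 and with no filter (-1.06). Without the fold minimum, 6061, 8642 and 5414 genes were called in tumours against GNPC, tumours against DBS and GNPC against DBS, in place of 2552, 4457 and 2259. After median scaling of the arrays, the median gene shifted to 0.21 against GNPC and 0.12 against DBS, and the share of higher calls was 48.8%, 48.7% and 37.9% in the 3 comparisons, in place of 31.7%, 42.5% and 47.4%. No paired analysis was possible because the labels give no replicate numbers. Dim members are limited by background: Usp18 and Oasl2 exceeded the array median on 2 arrays each.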

Other observations

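Of 42 genes on the pathway lists that had a probe set but did not pass the filter, 16 had their highest value of all 13 samples in tumour 2, beside 7.58% of all 5923 genes that did not pass the filter. Named after their values were seen, they included Ifi27l2a at 1134.3 in tumour 2 and 2.3 to 136.1 in the other tumours, Ifi44l, the neighbour of Ifi44 in the annotation, at 310.8 and 2.9 to 65.9, Mx2, an antiviral GTPase, at 305.6 and 2.5 to 42.1, and Mx1 at 216.4 and 15.4 to 60.1. In GNPC and DBS these 4 genes ran from 1.9 to 64.4, below the array medians.

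The 21 tested genes that were at least 8-fold higher in tumour 2 than the median of the other tumours, on the log2(intensity + 18) scale, included 9 that are neither members nor on a pathway list: Adssl1, Calb1, Cdkn2c, Fam107a, Lhx9, Mobp, Pdlim3, Ppp1r17 and Ptprg. Cdkn2c, a cell cycle inhibitor, had the largest difference of the 21, 5.29 on the log2 scale.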
